A study of Homo sapiens with 12 samples.

Results

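Poly(A)-enriched RNA of HepG2 cells given doxycycline alone was compared with that of cells given the solvent alone, across the 13511 genes of the deposited count table. HepG2 is a human hepatoma line that keeps many hepatocyte genes active, and the labels give its genotype as wild type. The comparison takes 6 of the 12 libraries of the study: 3 labelled DMSO and 3 labelled DMSO + Dox, here called Dox, chosen by their labels. Cells of both groups were held in DMSO for 1 h before treatment. The Dox cells then received 30 µg/ml doxycycline for 24 h with DMSO still present, and the DMSO cells received none. Per the treatment protocol no other antibiotic was present, and both groups lacked A-485, the CBP/p300 inhibitor given at 5 µM to the other 6 libraries. The cells are 1 established line in culture, and nothing in the labels shows that a group holds more than 1 culture. The p-values therefore rest on library-to-library spread that is possibly technical only.

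Doxycycline blocks translation by bacterial ribosomes and by the related ribosomes of mitochondria, which make the core subunits of the respiratory chain from mRNAs of the mitochondrial genome. In mammalian cells, mitochondrial stress of this kind is known to reach the nucleus through the integrated stress response. Kinases phosphorylate the initiation factor eIF2alpha, bulk translation slows, and the mRNA of the transcription factor ATF4 is translated. ATF4 and its partners of the C/EBP family bind a composite DNA element and activate genes for amino acid import, amino acid synthesis and tRNA charging.

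Dox replicate 1 stood apart from every other library, so its value is given beside those of the other libraries. List counts below are without it unless stated, and the median with all 6 libraries is added for each list named below whose median changed sign. Gene totals were alike, at 46600324 to 51773300 counts per library. Within a group, counts of paired libraries gave a chi-square per degree of freedom of 1.31 to 1.87 for the pairs without Dox replicate 1 and 866 and 884 for its pairs with Dox replicates 2 and 3. Its counts had Spearman correlations of 0.901 and 0.899 with those replicates across genes, which correlated at 0.999 with each other. In a principal component analysis of the 6 libraries, component 1 held 81.5% of the variance and separated Dox replicate 1 from the other 5. Component 2 held 15.9%, with DMSO at -18.5 to -17.7, Dox replicates 2 and 3 at 28.3 and 28.9 and Dox replicate 1 between them at -2.76. All 11 hepatocyte and HepG2 markers were in the table, and their summed level was 58268 to 58790 CPM (read counts scaled to a common library size) in DMSO, with 47907 and 48093 in Dox replicates 2 and 3 but 58370 in Dox replicate 1. The sum in Dox replicate 1 hides opposite shifts, with APOB at 3307 CPM against 9608 to 9872 in DMSO and SERPINA1 at 15916 against 8899 to 8996. Without that library 3 of the 11 markers were higher in Dox and 8 lower, at the threshold given below. Of the endothelial, leukocyte, stromal and cholangiocyte markers 2 of 5, 3 of 5, 2 of 5 and 2 of 4 were in the table. PTPRC, CD68, VWF, CDH5, KDR, COL1A1, COL3A1, DCN, KRT7 and CFTR were not in it and were not analysed here. The leukocyte sum was almost all LYZ, at 1110 to 1121 CPM in DMSO, with 710 and 715 in Dox replicates 2 and 3 but 254 in Dox replicate 1, and the part of other cells in the results was not tested.

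Levels below are CPM on totals scaled by the trimmed mean of M values (TMM), and a change is a log2 fold change of Dox over DMSO with its SE. A gene was called at an adjusted p under 0.05 in edgeR's quasi-likelihood test. The verbs rose and fell mean a call in the fit without Dox replicate 1 (5 libraries), and "in both fits" means that the fit with all 6 libraries made the same call.

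Without Dox replicate 1, 4513 genes were higher in Dox (33.4% of those tested) and 4576 were lower (33.9%), but most changes were small. The median absolute log2 change of these called genes was 0.27. With library totals in place of TMM the calls were 5858 higher and 3387 lower, so that 63.4% of calls were rises in place of 49.7%. Changes of more than 1.5-fold were called upward in 644 genes (4.77%) and downward in 613 (4.54%), and changes of more than 2-fold in 194 (1.44%) and 147 (1.09%). With all 6 libraries 100 genes were called higher (0.74%) and 43 lower (0.318%), while 1176 and 877 had an unadjusted p under 0.05. Every one of these 143 genes was called in the same direction without Dox replicate 1, and 81 of the higher and 30 of the lower ones changed more than 2-fold in both fits. Leaving out 1 DMSO library left 0 to 2 genes higher and 0 lower (edgeR, with 563 to 568 and 425 to 426 at an unadjusted p under 0.05), and leaving out Dox replicate 2 or 3 left 28 higher each and 2 or 0 lower. The fitted biological coefficient of variation was 1.22% without Dox replicate 1 and 29.3% when it was included. Without any estimate of spread, all 3 Dox libraries lay above all 3 DMSO libraries for 2656 genes (19.7%) and below them for 2786 (20.6%). The shares over all genes given here are the background for the list counts below.

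**Figure D1:**
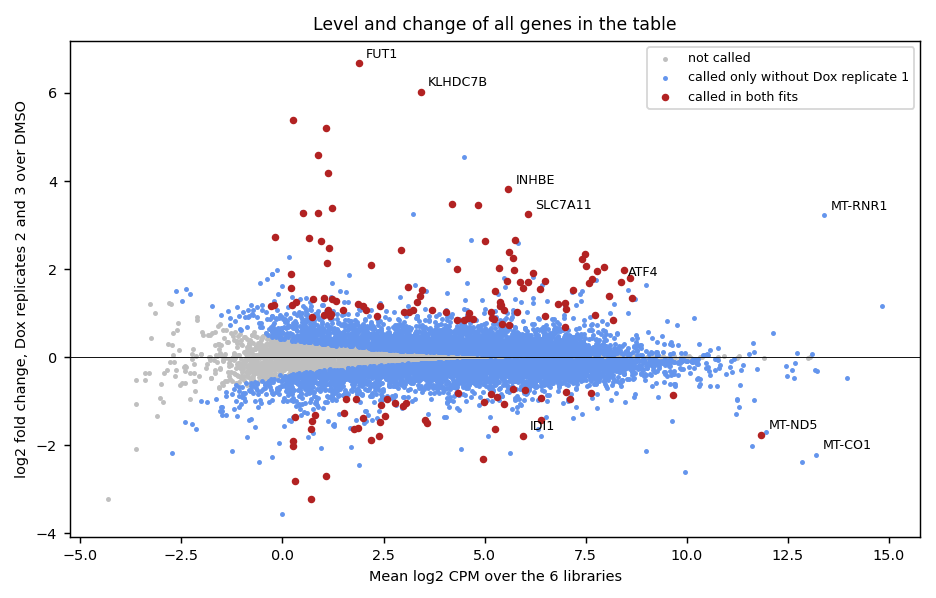
Change of every gene (log2 fold change of Dox replicates 2 and 3 over DMSO) against its mean log2 CPM over the 6 libraries. Grey points were not called, blue points were called only without Dox replicate 1, and the 143 red points were called in both fits. KLHDC7B, INHBE and SLC7A11 lie far above the bulk of genes, and MT-CO1, MT-ND5 and IDI1 lie below it.

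Genes called in both fits were ranked where their mean log2 CPM over the 6 libraries was at least 3. KLHDC7B and INHBE led the largest rises, and MTCO1P12 and IDI1 the largest falls. KLHDC7B, INHBE, JDP2, ADM2 and SLC17A2 passed this floor only through Dox, with DMSO means of 0.32, 6.70, 2.58, 3.98 and 7.49 CPM. CD24, PEG13 and COL2A1 passed it only through DMSO, with Dox means of 6.05, 5.80 and 5.29 CPM. KLHDC7B (ENSG00000130487, chromosome 22, 50545891 to 50551023, GRCh38) had 0.39, 0.355 and 0.207 CPM in DMSO and 22.2, 21.0 and 20.2 in Dox. Its count went from 47 reads over 3 DMSO libraries to 2237 over Dox replicates 2 and 3, a ratio of 69.0 per unit depth (95% exact interval 51.7 to 94.2, counting error only). The 15 largest rises, in order of the smaller of the 2 fitted changes, were KLHDC7B, INHBE, JDP2, ADM2, SLC7A11, SESN2, SLC6A9, CARS, YARS, AKNA, MTHFD2, TRIB3, LMO4, MARS and SLC17A2. Their changes without Dox replicate 1 ran from 2.0005 for SLC17A2 to 6.02 for KLHDC7B. AKNA, an AT-hook protein, had 16.1 to 18.3 CPM in DMSO against 58.0, 89.8 and 92.6 in Dox. The transcription cofactor LMO4 had 14.1 to 15.1 CPM in DMSO and 80.9, 59.8 and 59.1 in Dox.

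Among the 15 largest falls were MTCO1P12, IDI1, MT-ND5, HSPA1B, CD24, MSMO1, PEG13, LSS, COL2A1, TENT5A, CITED2, ADM, CALR and BIRC3, with changes from -2.31 to -0.82 without Dox replicate 1. CD24, a surface glycoprotein, had 17.47, 17.77 and 18.01 CPM in DMSO and 5.57, 6.34 and 6.24 in Dox. COL2A1, the type II collagen chain, had 10.99 to 11.65 CPM in DMSO and 4.85 to 5.52 in Dox. CITED2, a transcription regulator that binds CBP and p300, had 111 to 115 CPM in DMSO and 48.76, 58.97 and 60.02 in Dox. The inhibitor of apoptosis BIRC3 had 25.9 to 26.7 CPM in DMSO and 13.4, 15.1 and 14.6 in Dox. TENT5A, a noncanonical poly(A) polymerase, had almost the same level in the 3 Dox libraries, 20.7, 21.1 and 20.8 CPM, against 42.1 to 42.7 in DMSO.

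**Figure D2:**
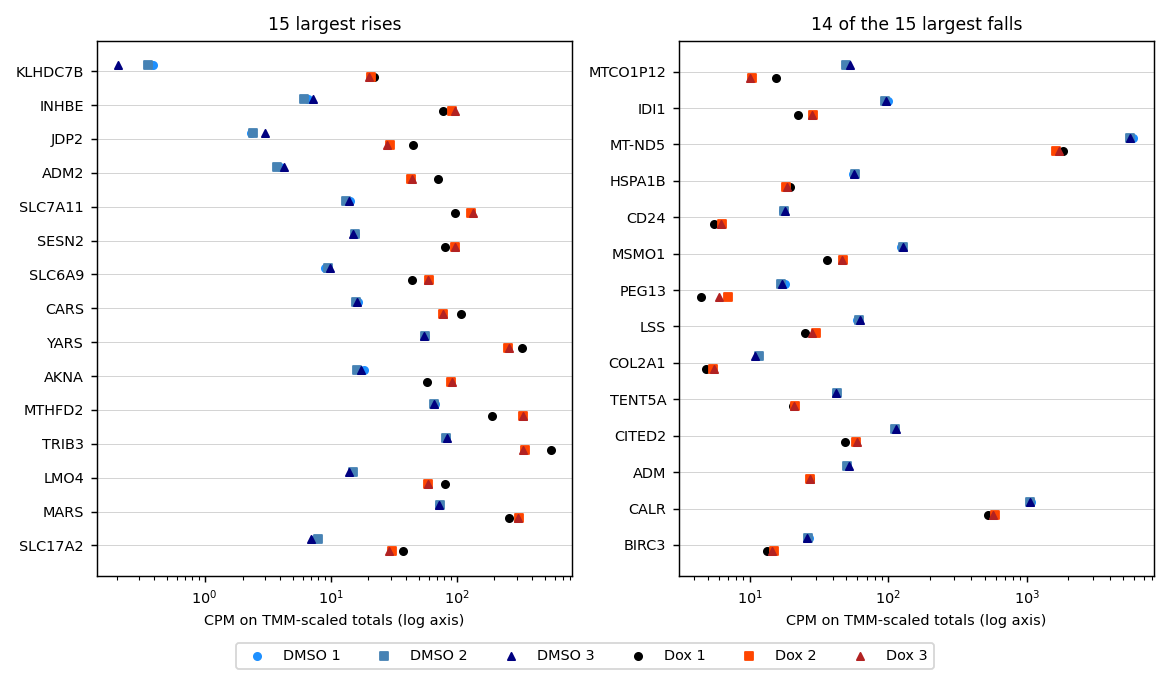
CPM of the 15 largest rises and 14 of the 15 largest falls (log axis), with 1 point per library, DMSO in blue shades, Dox replicate 1 in black and Dox replicates 2 and 3 in red shades. In each gene shown the Dox points do not overlap the DMSO points, as the rule for naming these genes required, and Dox replicate 1 lies on the same side as Dox replicates 2 and 3.

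The ATF4 pathway moved upward without exception at the call threshold. Of its 22 measured members, all 22 rose, 18 by more than 1.5-fold, with a median change of 1.66 against -0.0014 for all genes, and 11 rose in both fits. All 3 Dox libraries lay above all 3 DMSO libraries for 21 of the 22, against 19.7% of all genes. This list, like the others, was written with earlier results of these data known, so its counts are not independent evidence for the pathway. ATF4 itself (ENSG00000128272, chromosome 22, 39519695 to 39522685) had 155, 152 and 151 CPM in DMSO and 531, 504 and 500 in Dox. The groups did not overlap, and the change was 1.71 ± 0.02 without Dox replicate 1 (edgeR adjusted p = 1.3e-63) and 1.74 ± 0.11 with it (edgeR adjusted p = 0.0050).

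Transcription factors that work with or downstream of ATF4 rose with it. JDP2, a repressor of the AP-1 family (chromosome 14, 75427716 to 75474111), had 2.32, 2.40 and 3.01 CPM in DMSO and 44.9, 29.6 and 28.0 in Dox. CEBPB had 90.0, 91.0 and 88.1 CPM in DMSO and 298, 285 and 290 in Dox, a change of 1.68 ± 0.02 without Dox replicate 1 and 1.70 ± 0.10 with it, called in both fits. DDIT3, which encodes CHOP, had 3.67, 4.03 and 3.20 CPM in DMSO, with 22.7 and 23.4 in Dox replicates 2 and 3 but 96.0 in Dox replicate 1. DDIT3 rose by 2.67 ± 0.06 without that library and was at 3.70 ± 0.70 with it (edgeR adjusted p = 0.098). Other annotation overlaps 39.6% of its exon length, with MARS the largest partner. NUPR1, a small stress-induced chromatin protein, had 0.71 to 0.997 CPM in DMSO, with 20.1 and 21.5 in Dox replicates 2 and 3 but 91.0 in Dox replicate 1. ATF3, a stress-induced factor, had 11.6 to 12.1 CPM in DMSO and 15.7, 20.4 and 19.4 in Dox, and ATF5, tied to the mitochondrial unfolded protein response, had 15.2 to 15.8 in DMSO and 81.3, 31.1 and 31.5 in Dox. Both rose without Dox replicate 1, by 0.75 ± 0.05 and 1.01 ± 0.04, and neither was called with it (edgeR adjusted p = 0.12 and 0.18).

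Feedback and effector genes of the same pathway varied more in level than in direction. TRIB3, a pseudokinase that restrains ATF4, had 82.4 to 83.8 CPM in DMSO and 558, 350 and 338 in Dox. SESN2, which signals amino acid shortage to mTORC1, had 14.98 to 15.74 CPM in DMSO and 81.3, 97.8 and 97.1 in Dox, and rose in both fits by 2.66 ± 0.03 and 2.58 ± 0.13. CHAC1, an enzyme that degrades glutathione, had 17 reads over 3 DMSO libraries, 304 over Dox replicates 2 and 3, and 192 in Dox replicate 1, a ratio of 25.9 (95% exact interval 15.9 to 45.1, counting error only) for replicates 2 and 3 over DMSO. The proapoptotic gene BBC3 had 23.9 to 24.2 CPM in DMSO and 63.6, 57.3 and 57.5 in Dox, and was the only one of 25 p53 targets called in both fits. Of those 25 targets 15 rose and 6 fell without Dox replicate 1, with only BBC3 past 1.5-fold. CDKN1A, the p53 target that halts the cell cycle, had 73.5 to 75.3 CPM in DMSO, with 63.3 and 62.3 in Dox replicates 2 and 3 but 111 in Dox replicate 1, so its sign turned with that library.

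Of 14 measured kinases, phosphatase subunits and relay genes around eIF2alpha 3 rose and 6 fell, and without Dox replicate 1 only PPP1R15B passed 1.5-fold. PPP1R15A, the stress-induced partner of the eIF2alpha phosphatase, had 31.7, 30.1 and 32.0 CPM in DMSO and 69.2, 44.6 and 45.4 in Dox, so the groups did not overlap. It rose by 0.52 ± 0.03 without Dox replicate 1 and was at 0.76 ± 0.21 with it, not called (edgeR adjusted p = 0.19). PPP1R15B, a constitutive partner of the eIF2alpha phosphatase, had 41.9 to 42.6 CPM in DMSO, with 70.0 and 70.9 in Dox replicates 2 and 3 but 32.0 in Dox replicate 1, and its change was 0.74 ± 0.03 without that library and 0.45 ± 0.32 with it (edgeR adjusted p = 0.51). Among 24 genes that couple nutrients to mTORC1, 13 rose and 8 fell. The translation repressor EIF4EBP1 had 52.4 to 55.6 CPM in DMSO, with 156 and 151 in Dox replicates 2 and 3 but 544 in Dox replicate 1, and DDIT4 had 51.1 to 53.2, then 165 and 158, and 39.3. Both rose without Dox replicate 1, by 1.4995 ± 0.02 and 1.64 ± 0.02, and DDIT4 in Dox replicate 1 lay below DMSO.

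Promoters of genes that rose were searched for the ATF4 and C/EBP composite element, written TGATGNAA, on either strand of the 300 bases around each RefSeq start (250 before, 50 after, GRCh38.p14). The table of promoters held 10184 of the 13511 genes, and 279 of these (2.74%) had the element in at least 1 window. It was present in 14 of 62 genes (22.6%) that rose more than 2-fold in both fits and in 1 of 19 (5.26%) that fell as far. Genes of these 2 sets had 1.63 and 1.37 windows on average, against 1.45 for all genes. By list it was present in 7 of 16 cytosolic aminoacyl-tRNA synthetases (43.8%), 5 of 14 amino acid transporters (35.7%) and 4 of 19 ATF4 pathway genes (21.1%). The 7 stretches below come from the 14 genes with the element that rose more than 2-fold in both fits. CEBPG and FUT1 were picked after their values were seen. Each stretch is read 5′ to 3′ on the gene's strand with the element or its reverse complement in capitals.
FUT1 (chr19:48755444-48755503, minus strand): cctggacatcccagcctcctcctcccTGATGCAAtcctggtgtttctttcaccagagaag
KLHDC7B (chr22:50545722-50545781, plus strand): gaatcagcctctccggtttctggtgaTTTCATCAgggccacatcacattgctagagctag
CHAC1 (chr15:40953236-40953295, plus strand): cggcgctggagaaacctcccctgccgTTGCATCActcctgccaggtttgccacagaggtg
ASNS (chr7:97872443-97872502, minus strand): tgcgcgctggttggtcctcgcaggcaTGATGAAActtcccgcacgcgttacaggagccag
AARS (chr16:70289660-70289719, minus strand): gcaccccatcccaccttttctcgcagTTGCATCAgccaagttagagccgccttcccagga
MTHFD1L (chr6:150866331-150866390, plus strand): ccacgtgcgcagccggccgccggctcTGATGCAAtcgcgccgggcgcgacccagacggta
CEBPG (chr19:33374045-33374104, plus strand): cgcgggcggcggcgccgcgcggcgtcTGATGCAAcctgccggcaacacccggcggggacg
Counted to the RefSeq start of the window that holds it, the element begins 119 bases before the start in FUT1, 151 in KLHDC7B, 209 in CHAC1, 68 in ASNS, 187 in AARS, 129 in MTHFD1L and 42 in CEBPG. The table lists 1 start for KLHDC7B, CHAC1 and AARS, 2 for FUT1, ASNS and CEBPG and 4 for MTHFD1L. The stretches of CHAC1, ASNS, MTHFD1L and CEBPG lie inside the gene as GENCODE 29 annotates it. A match is a run of letters in the reference and does not show that a factor binds there.

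FUT1, a fucosyltransferase that builds the H blood group antigen (chromosome 19, 48748011 to 48755390), went from 0.0188 to 0.104 CPM in DMSO to 7.57, 7.11 and 7.03 in Dox. Its level was too low for the naming rule, and it was chosen after its values were seen. It rose in both fits, at 6.67 ± 0.20 and 6.70 ± 0.42 (edgeR adjusted p = 1.1e-37 and 0.0059).

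Of 16 amino acid transporters 12 rose and 4 fell, 10 rose and 1 fell by more than 1.5-fold, and 5 rose in both fits. SLC7A11, the cystine and glutamate exchanger, had 14.2, 13.3 and 13.9 CPM in DMSO and 96.7, 130 and 134 in Dox, a change of 3.25 ± 0.03 without Dox replicate 1 and 3.12 ± 0.17 with it. SLC6A9, a glycine transporter, had 9.06 to 9.93 CPM in DMSO and 44.3, 59.9 and 59.7 in Dox. The neutral amino acid transporters SLC1A5 and SLC1A4 had 201 to 204 and 78.3 to 81.9 CPM in DMSO, against 767, 516 and 517 and 152, 183 and 189 in Dox. SLC43A1, another amino acid transporter, had 74.8 to 76.1 CPM in DMSO and 214, 220 and 215 in Dox.

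Of 16 genes of serine, one-carbon, proline and asparagine synthesis 10 rose and 6 fell, 8 rose and none fell by more than 1.5-fold, and 4 rose in both fits. ASNS, asparagine synthetase, had 60 reads over the 3 DMSO libraries and 455 over Dox replicates 2 and 3, a ratio of 10.998 (95% exact interval 8.39 to 14.6, counting error only). Other annotation overlaps 44.6% of its exon bases. The mitochondrial folate enzyme MTHFD2 had 65.7 to 67.5 CPM in DMSO and 193, 336 and 339 in Dox. Other annotation overlaps 33.2% of its exon length, with SLC4A5 the largest partner. PSAT1, an enzyme of serine synthesis, had 153 to 156 CPM in DMSO and 423, 612 and 606 in Dox, and MTHFD1L had 67.0 to 68.7 and 161, 156 and 159.

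The lists of cytosolic and mitochondrial enzymes that charge tRNAs had medians of opposite sign. A place on either list does not show that an enzyme works in that compartment alone. Of 20 aminoacyl-tRNA synthetases listed as cytosolic 15 rose and 2 fell, 11 rose by more than 1.5-fold, and 8 rose in both fits. Of 16 listed as mitochondrial 3 rose and 12 fell, none by more than 1.5-fold in either direction and none in both fits (edgeR, with 0 higher and 1 lower at an unadjusted p under 0.05 over all 6 libraries). Their median changes were 0.84 and -0.18. CARS, the cysteine enzyme, had 16.01 to 16.51 CPM in DMSO and 109, 77.8 and 78.0 in Dox, and YARS, the tyrosine enzyme, 55.3 to 56.1 and 330, 258 and 262. MARS, GARS and AARS, for methionine, glycine and alanine, rose in both fits by 2.08 ± 0.02, 1.97 ± 0.02 and 1.80 ± 0.02 without Dox replicate 1. The mitochondrial AARS2 had 31.8 to 32.8 CPM in DMSO and 17.3, 26.4 and 25.3 in Dox, and IARS2 had 247 to 251 and 52.2, 203 and 199. CARS2 had 62.0 to 66.0 CPM in DMSO, with 54.0 and 50.9 in Dox replicates 2 and 3 but 91.3 in Dox replicate 1, above DMSO.

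**Figure D3:**
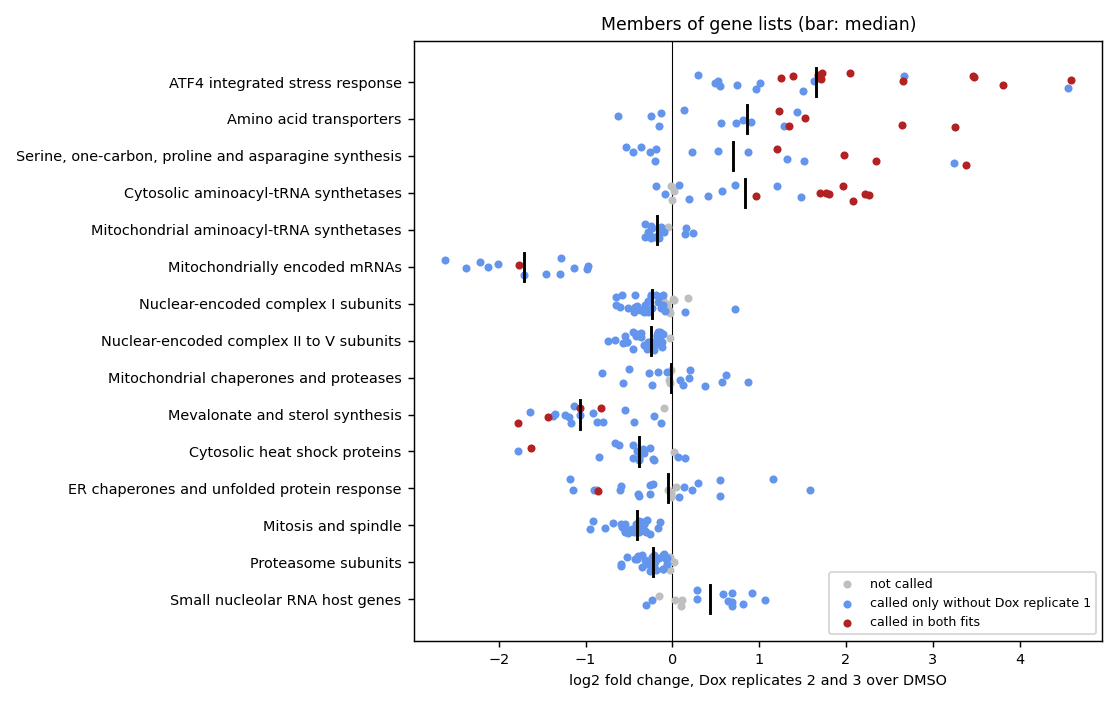
Log2 fold change of each member of 15 gene lists, Dox replicates 2 and 3 over DMSO, with the list's median as a bar. Red points were called in both fits and blue points only without Dox replicate 1. The ATF4 list lies wholly to the right at a median of 1.66, the mitochondrially encoded mRNAs wholly to the left at -1.71, and the sterol synthesis list has its median at -1.06.

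Secreted hormones of the stress response were among the strongest single changes. INHBE, an activin subunit made by liver (ENSG00000139269, chromosome 12, 57452323 to 57459280), had 6.64, 6.20 and 7.26 CPM in DMSO and 78.5, 91.7 and 97.0 in Dox, and rose in both fits by 3.81 ± 0.04 and 3.73 ± 0.15 (edgeR adjusted p = 4.3e-62 and 0.0038). The peptide hormone ADM2 had 3.74 to 4.25 CPM in DMSO and 71.5, 43.7 and 44.6 in Dox. STC2, a stanniocalcin, had 153 CPM in each DMSO library and 358, 399 and 403 in Dox. GDF15, a stress hormone read out by the brainstem, had 482 to 495 CPM in DMSO and 1220, 693 and 680 in Dox, and rose by 0.49 ± 0.02 without Dox replicate 1 but was not called with it, at 0.82 ± 0.27 (edgeR adjusted p = 0.25). Among the 17 hormones measured 10 rose and 3 fell, with 3 called in both fits, all upward. ADM, the paralog of ADM2 and a hypoxia-inducible gene, went the other way, from 50.8 to 52.3 CPM in DMSO to 27.3, 27.5 and 27.5 in Dox.

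RNAs of the mitochondrial genome moved in opposite directions by class. All 13 protein-coding mRNAs fell, each by more than 1.5-fold, with changes of -2.62 to -0.97 and a median of -1.71, while both rRNAs rose. With all 6 libraries only MT-ND5 was called among the 13. All Dox libraries lay below all DMSO libraries for 6 of the 13, against 20.6% of all genes. Their share of all gene counts was 5.73 to 5.82% in DMSO, 1.66 and 1.78% in Dox replicates 2 and 3 but 3.49% in Dox replicate 1.

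MT-ND5, a complex I subunit (mitochondrial genome, 12337 to 14148), had 5844, 5570 and 5561 CPM in DMSO and 1820, 1634 and 1706 in Dox, a change of -1.76 ± 0.02 without Dox replicate 1 and -1.72 ± 0.15 with it (edgeR adjusted p = 1.1e-30 and 0.011). MT-CO1, the catalytic subunit of cytochrome c oxidase (5904 to 7445), had 14859 to 14890 CPM in DMSO, with 3104 and 3319 in Dox replicates 2 and 3 but 5440 in Dox replicate 1. MT-ND6, the mRNA transcribed from the other strand, had 1575 to 1715 CPM in DMSO and 512, 248 and 284 in Dox. Whether counting used strand is not stated in any source used here, so the MT-ND6 counts may hold RNA of the opposite strand. In MT-ND5, MT-CO1 and MT-ND6 all Dox libraries lay below DMSO. In MT-ATP6, MT-CYB and MT-CO2, named after their values were seen, Dox replicate 1 lay above DMSO instead. MT-ATP6, an ATP synthase subunit, had 3145 to 3216 CPM in DMSO, with 1581 and 1637 in Dox replicates 2 and 3 but 6765 in Dox replicate 1. MT-CYB, the cytochrome b of complex III, had 2600 to 2675, then 1304 and 1372, and 3948. MT-CO2 had 4924 to 5008, then 1494 and 1553, and 6173.

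The 12S rRNA gene MT-RNR1 (648 to 1601) had 1287, 1280 and 1284 CPM in DMSO, with 12000 and 11978 in Dox replicates 2 and 3 but 36805 in Dox replicate 1. The 16S gene MT-RNR2 (1671 to 3229) had 12687 to 12742, then 28270 and 28601, and 79599. Their changes were 3.22 ± 0.01 and 1.16 ± 0.01 without Dox replicate 1 (edgeR adjusted p = 1.6e-82 and 1.1e-59) and 3.98 ± 0.56 and 1.84 ± 0.48 with it, not called (edgeR adjusted p = 0.053 and 0.18). All Dox libraries were above DMSO for both. The reads come from poly(A)-enriched RNA, so rRNA levels here are those of the RNA that the enrichment kept. MT-TP, a tRNA gene on the opposite strand to most mRNAs, fell by 1.79 on the log2 scale without Dox replicate 1, from 106 to 108 CPM in DMSO to 31.0 and 30.9, and had 124 in Dox replicate 1. As for MT-ND6, its counts may hold RNA of the opposite strand. The pseudogene MTCO1P12 (chromosome 1, 631074 to 632616), a nuclear copy of MT-CO1 that can take up its reads, had 49.4 to 52.9 CPM in DMSO and 15.7, 10.4 and 10.1 in Dox.

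**Figure D4:**
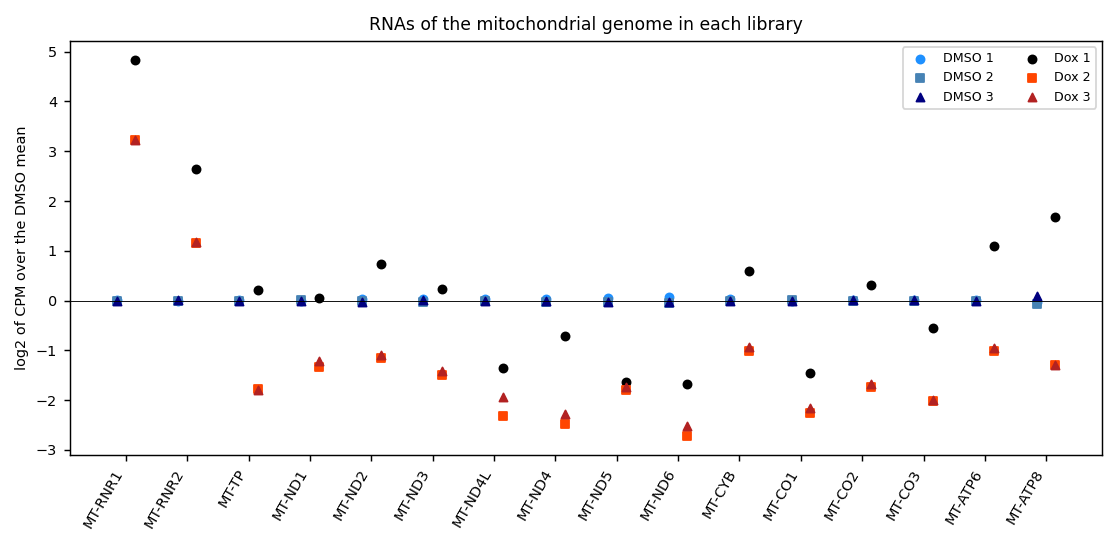
Log2 ratio of each library's CPM to the DMSO mean for the 16 mitochondrial genes in the table. Dox replicates 2 and 3 (red shades) lie below zero for MT-TP and all 13 mRNAs and above it for the 2 rRNAs. Dox replicate 1 (black) lies above them for all 16 genes, by the least for MT-ND5.

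Nuclear genes for mitochondrial proteins moved little, and the sign of several lists turned with Dox replicate 1. Of 35 nuclear-encoded complex I subunits 2 rose and 25 fell, 3 by more than 1.5-fold, with a median of -0.23 without Dox replicate 1 and 0.46 with all 6 libraries. Of 41 subunits of complexes II to V 40 fell, 2 by more than 1.5-fold, with medians of -0.25 and 0.41. NDUFB3, an accessory complex I subunit, had 40.6 to 41.4 CPM in DMSO, with 25.3 and 26.9 in Dox replicates 2 and 3 but 107 in Dox replicate 1. ATP5MC1, which encodes the ring subunit c of ATP synthase, had 71.8 to 75.3, then 44.3 and 43.7, and 207. No member of either list was called with all 6 libraries by edgeR. At an unadjusted p under 0.05, 1 complex I gene was higher and 1 lower there, and 1 gene of complexes II to V was lower. The directions rest on 2 of the 3 Dox libraries.

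Mitochondrial ribosome proteins followed the same course. Of 48 large-subunit proteins 6 rose and 28 fell, none past 1.5-fold, with medians of -0.13 without Dox replicate 1 and 0.29 with it. Of 30 small-subunit proteins 8 rose and 14 fell, with medians of -0.06 without Dox replicate 1 and 0.32 with it, and with library totals in place of TMM 12 rose and 9 fell. Among 32 genes of mitochondrial RNA synthesis and turnover 9 rose and 12 fell, and among 22 mitochondrial translation factors 7 rose and 8 fell, in both none past 1.5-fold. Library totals turned both, to 10 higher and 8 lower and to 11 higher and 4 lower. TFAM, which packages mitochondrial DNA, had 94.4 to 96.1 CPM in DMSO, with 87.3 and 87.1 in Dox replicates 2 and 3 but 57.9 in Dox replicate 1. PPARGC1A, a coactivator of mitochondrial biogenesis, had 40.4 to 43.0 CPM in DMSO, with 77.2 and 78.4 in Dox replicates 2 and 3 but 25.4 in Dox replicate 1. It belongs to 11 regulators of mitochondrial biogenesis, of which 7 rose and 1 fell.

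Mitochondrial chaperones and proteases showed no common direction, with 8 of 18 rising and 7 falling and a median of -0.02. GRPEL2, a cochaperone of the matrix Hsp70, had 15.2 to 16.3 CPM in DMSO and 18.4, 28.9 and 29.6 in Dox, and HSPA9, that Hsp70, had 424 to 433 and 620, 634 and 640. HSPD1, the matrix Hsp60, had 2432 to 2442 CPM in DMSO and 1508, 2078 and 2079 in Dox, and fell by 0.23 on the log2 scale without Dox replicate 1. Its partner HSPE1 had 50.5 to 59.0, then 32.2 and 30.0, and 169 in Dox replicate 1. Other annotation overlaps 23.9% of the exon bases of HSPE1, with HSPD1 the largest partner. Import and dynamics genes had 12 of 37 higher and 18 lower (14 and 14 with library totals), with medians of -0.05 without Dox replicate 1 and 0.14 with it, and TIMM44 was at 26.3 to 26.7 CPM in DMSO and 94.6, 48.2 and 47.8 in Dox. SLC25 carriers had 13 of 34 higher and 8 lower. Of 22 TCA cycle genes 15 fell and 1 rose, none past 1.5-fold.

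Cholesterol synthesis fell along nearly its whole length. Of 20 genes of the mevalonate and sterol pathway 19 fell and none rose, 15 fell by more than 1.5-fold, the median was -1.06 without Dox replicate 1 and -0.94 with it, and 4 fell in both fits. IDI1, the isopentenyl diphosphate isomerase (chromosome 10, 1039152 to 1049170), had 101, 94.5 and 96.8 CPM in DMSO and 22.3, 28.5 and 28.2 in Dox, a change of -1.78 ± 0.03 without Dox replicate 1 and -1.89 ± 0.14 with it (edgeR adjusted p = 6.9e-51 and 0.0076). FDPS, which makes farnesyl diphosphate, had 44.8 to 45.5 CPM in DMSO and 26.7, 25.5 and 25.3 in Dox. LSS, which closes the sterol rings, had 59.6 to 62.9 and 25.03, 30.07 and 28.37, and MSMO1, a sterol demethylase, 123 to 129 and 36.3, 47.3 and 46.4. The sterol element, searched as TCACNCCAC, was in none of 15 sterol synthesis promoters and in 1.46% of all promoters. At so low a share over all promoters, finding none in 15 cannot tell this list apart from other genes.

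Fatty acid and glucose genes were mixed. Of 23 genes of fatty acid synthesis and desaturation 6 rose and 14 fell. GPAM, the first enzyme of glycerolipid synthesis, had 48.7 to 49.7 CPM in DMSO, with 122 and 125 in Dox replicates 2 and 3 but 45.7 in Dox replicate 1, while the desaturase SCD had 2266 to 2302 and then 666, 1439 and 1461. Of 30 genes of fatty acid oxidation and PPAR-alpha targets 7 rose and 18 fell, with medians of -0.18 without Dox replicate 1 and 0.05 with it. PLIN2, the lipid droplet coat protein, was at 1001 to 1015 CPM in DMSO and 660, 669 and 657 in Dox. Glycolysis and glucose uptake had 19 of 24 genes lower and 3 higher. The glucose transporter SLC2A3 had 497 to 508 CPM in DMSO and 154, 244 and 248 in Dox. The phosphoenolpyruvate carboxykinases diverged. The mitochondrial PCK2 had 182 to 187 CPM in DMSO and 1336, 574 and 578 in Dox, and the cytosolic PCK1 49.6 to 50.9 and 10.0, 30.4 and 29.4. The glucose-responsive arrestin TXNIP had 23.8 to 24.1 CPM in DMSO and 38.1, 64.0 and 66.0 in Dox. None of these 7 genes was called with all 6 libraries. Of 11 gluconeogenesis genes 7 rose and 2 fell, and of 10 genes of TXNIP, arrestins and glucose sensing 6 rose and 1 fell. Of 22 hypoxia-inducible genes 14 fell and 6 rose, ADM alone in both fits.

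Protein folding genes fell in the cytosol and divided in the endoplasmic reticulum (ER). Of 18 cytosolic heat shock genes 15 fell and 2 rose, 5 fell by more than 1.5-fold, and HSPA1B fell in both fits. HSPA1B, a stress-inducible Hsp70, had 56.2, 58.0 and 57.0 CPM in DMSO and 19.7, 18.2 and 18.6 in Dox, a change of -1.63 ± 0.04 without Dox replicate 1 and -1.60 ± 0.11 with it (edgeR adjusted p = 3.3e-45 and 0.0059). Its near-identical paralog HSPA1A had 48.1 to 49.6 CPM in DMSO and 28.7, 14.9 and 13.5 in Dox, and reads may be split between the pair. HSPB1, a small heat shock protein, had 88.5 to 90.6, then 50.6 and 48.7, and 213 in Dox replicate 1. Of 25 ER chaperone and unfolded protein response genes 8 rose and 12 fell, 2 and 7 by more than 1.5-fold. With library totals in place of TMM 11 rose and 11 fell.

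The 2 that rose past 1.5-fold were ERN1, the ER stress sensor IRE1, with 26.03 to 26.57 CPM in DMSO and 33.5, 78.1 and 80.0 in Dox, and HERPUD1, a part of ER-associated degradation, with 83.0 to 83.4 and 134, 188 and 185. The ER chaperone CALR fell in both fits, from 1051 to 1071 CPM in DMSO to 526, 596 and 577 in Dox. MANF, a secreted ER stress protein, had 61.2 to 63.3 CPM in DMSO, with 27.0 and 28.0 in Dox replicates 2 and 3 but 63.3 in Dox replicate 1, which overlapped DMSO, and SDF2L1, a cofactor of ER chaperones, had 23.0 to 24.7, then 11.7 and 10.0, and 24.7.

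Cell division genes were lower. All 30 mitosis and spindle genes fell, 6 by more than 1.5-fold, with a median of -0.41. All Dox libraries lay below all DMSO libraries for 22 of them, against 20.6% of all genes. None of the 30 was called by edgeR with all 6 libraries, where 14 were lower at an unadjusted p under 0.05. The kinesin KIF20A had 98.0 to 98.5 CPM in DMSO and 36.1, 50.2 and 51.7 in Dox, a change of -0.95 ± 0.03 without Dox replicate 1 and -1.09 ± 0.17 with it (edgeR adjusted p = 6.1e-40 and 0.066). The mitotic cyclin CCNB1 had 162 to 165 CPM in DMSO and 111, 96.3 and 95.6 in Dox. For PTTG1 and CDC20 Dox replicate 1 lay above DMSO instead. PTTG1 had 60.1 to 62.2 CPM in DMSO, with 32.4 in Dox replicates 2 and 3 but 76.2 in Dox replicate 1. CDC20 had 99.4 to 105, then 64.1 and 62.3, and 162. Of 38 genes of DNA replication and S phase 28 fell and 2 rose, 1 past 1.5-fold. That gene, the flap endonuclease FEN1, fell in both fits, from 65.2 to 65.6 CPM in DMSO to 36.9, 40.3 and 39.6 in Dox. MYC, a driver of growth, rose by 0.53 ± 0.02 without Dox replicate 1, from 257 to 263 CPM to 373 and 377, with 318 in Dox replicate 1. Of 20 G1 cyclins and CDK inhibitors 5 rose and 8 fell, and 10 rose and 6 fell with library totals.

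Of 17 albumin cluster and plasma carrier genes 11 fell and 2 rose, 1 fell by more than 1.5-fold, and none was called by edgeR with all 6 libraries (0 higher and 3 lower at an unadjusted p under 0.05). The median was -0.21 without Dox replicate 1 and 0.17 with it, and an offset by exonic length gave 6 higher and 9 lower. ALB had 18610, 18269 and 18436 CPM in DMSO and 13514, 13457 and 13328 in Dox, and AFP, the fetal paralog, 7348 to 7450 and 6032, 5338 and 5330. The 3 Dox libraries lay below DMSO for both. ALB fell by 0.46 on the log2 scale without Dox replicate 1 (edgeR adjusted p = 4.0e-37), and the same change with all 6 libraries had an SE of 0.16 and was not called (edgeR adjusted p = 0.28). TTR, the thyroxine carrier, had 90.4 to 95.2, then 46.2 and 47.1, and 188 in Dox replicate 1. A change in bulk RNA does not tell fewer expressing cells from less RNA per cell.

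NR1H4, the bile acid receptor FXR, was the only one of 25 hepatocyte transcription factors and nuclear receptors called in both fits. It had 31.7, 32.5 and 30.3 CPM in DMSO and 87.4, 94.1 and 93.6 in Dox, a change of 1.58 ± 0.03 without Dox replicate 1 and 1.54 ± 0.11 with it. Of the 25, 14 rose and 6 fell. Of 23 complement and acute phase genes 14 rose and 3 fell, with the complement-activating protease MASP1 in both fits, from 25.8 to 27.2 CPM in DMSO to 52.6, 57.5 and 60.1 in Dox. Among 21 coagulation genes 7 rose and 9 fell (9 and 6 with an offset by exonic length), and factor VII, F7, rose in both fits from 26.6 to 27.9 CPM to 71.8, 56.9 and 57.7. Of 17 apolipoprotein and lipoprotein assembly genes 3 rose and 10 fell (7 and 6 with that offset), with medians of -0.11 without Dox replicate 1 and 0.68 with it. ANGPTL8, a secreted inhibitor in lipoprotein lipase control, had 8.81 to 8.90 CPM in DMSO, with 53.8 and 53.6 in Dox replicates 2 and 3 but 209 in Dox replicate 1. Other annotation overlaps 28.6% of its exon length, with DOCK6 the largest partner.

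Amino acid breakdown split within the urea cycle. NAGS, which makes the cycle's activator, had 5.25 to 5.51 CPM in DMSO and 18.9, 16.4 and 14.6 in Dox, and rose in both fits. ARG1, its last enzyme, fell in both fits from 7.997 to 8.181 CPM to 4.09, 3.11 and 3.35. The tyrosine enzyme TAT rose in both fits from 5.68 to 6.28 CPM to 11.9, 13.3 and 12.3, and the betaine enzyme BHMT fell in both from 6.75 to 7.97 to 3.19, 3.50 and 3.39. Of the 25 genes of this list 12 rose and 8 fell. Of 39 drug-metabolizing enzymes 13 rose and 19 fell, against 33.4% and 33.9% of all genes. The enzyme medians were -0.25 without Dox replicate 1 and 0.17 with it, and CYP4F3 was higher and UGT2B11 lower in both fits. UGT2B11 had 271 reads over the DMSO libraries and 52 over Dox replicates 2 and 3, a ratio of 0.278 (95% exact interval 0.203 to 0.376, counting error only).

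Protein turnover and translation lists divided as follows. Of 34 proteasome subunits 31 fell and none rose, 2 past 1.5-fold, with medians of -0.22 without Dox replicate 1 and 0.11 with it. Of 36 lysosome and autophagy genes 19 rose and 8 fell, and MAP1LC3B, the LC3 protein of autophagosomes, rose in both fits from 83.3 to 85.5 CPM to 168, 178 and 180. Of 78 cytosolic ribosomal proteins 54 fell and 3 rose, at a median of -0.08. This direction did not hold, since library totals gave 12 lower and 18 higher and an offset by exonic length gave 6 lower and 51 higher, and the median with all 6 libraries was 0.73. Small nucleolar RNA host genes had 10 of 16 higher and 2 lower, 7 by more than 1.5-fold. SNHG8 had 19.3 to 21.0 CPM in DMSO and 169, 43.1 and 40.9 in Dox. Of 32 translation initiation factors 14 rose and 11 fell, and EIF2S2, the beta subunit of eIF2, had 174 to 179 CPM in DMSO and 1011, 354 and 359 in Dox.

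The remaining lists held few calls in both fits. Of 28 interferon-responsive genes 16 fell and 4 rose, with medians of -0.18 without Dox replicate 1 and 0.25 with it. IFIT1, a sensor of viral RNA, fell in both fits from 3.42 to 4.40 CPM to 1.66, 1.53 and 1.78. Of 16 circadian clock genes 12 rose and 3 fell, none in both fits by edgeR (2 higher at an unadjusted p under 0.05 over all 6 libraries), with the repressor NR1D2 at 18.9 to 19.1 CPM in DMSO, with 30.0 and 30.6 in Dox replicates 2 and 3 but 7.75 in Dox replicate 1. Of 35 NRF2 and glutathione genes 14 rose and 18 fell, with SLC7A11 the only call in both fits. Library totals gave 17 higher and 15 lower, and an offset by exonic length 18 higher and 12 lower. The NRF2 medians were -0.06 without Dox replicate 1 and 0.17 with it. Of 24 immediate early genes 8 rose and 8 fell, near the shares of 33.4% and 33.9% over all genes. FOS had 24.3 to 25.7 CPM in DMSO and 5.03, 11.8 and 11.3 in Dox. Metallothionein and zinc export genes were even, with 5 of 12 in each direction, and of 13 replication-dependent histone genes 2 rose and 5 fell, with medians of -0.25 without Dox replicate 1 and 0.10 with it. Histone levels here are those of the RNA that the poly(A) enrichment kept.

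Among 1155 long noncoding RNA genes, 341 rose (29.5%, against 33.4% of all genes) and 202 fell (17.5%, against 33.9%). By more than 1.5-fold 121 rose (10.5%, against 4.77% of all genes) and 54 fell (4.675%, against 4.54%). In both fits 11 rose and 3 fell, against 0.74% and 0.318% of all genes. Of 503 antisense RNAs 151 rose (30.0%) and 82 fell (16.3%). VLDLR-AS1, an antisense RNA of the VLDL receptor gene (chromosome 9, 2421597 to 2643359), had 33 reads over the DMSO libraries and 442 over Dox replicates 2 and 3, a ratio of 19.4 (95% exact interval 13.6 to 28.6, counting error only). It had 4.07 CPM in each Dox library. Other annotation overlaps 12.3% of its exon length, with VLDLR the largest partner. ERVH48-1, from an endogenous retrovirus, went from 276 to 49 reads over the same libraries, and the imprinted transcript PEG13 from 17.0 to 17.9 CPM to 4.431, 7.002 and 5.980. Whether counting used strand is not stated in any source used here, so an antisense RNA cannot be told apart from its partner where their exons overlap.

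The deviation of Dox replicate 1 followed transcript length. Over 10 bins of exonic length its log2 difference from the mean of Dox replicates 2 and 3 had a median of 1.08 in the shortest bin and -0.72 in the longest, while Dox replicates 2 and 3 differed from each other by a median of at most 0.017. The fit without it held a smaller trend of the opposite sign. Its median change was -0.07 in the shortest bin (262 genes higher, 463 lower) and 0.06 in the longest (604 higher, 372 lower). The list medians above were not corrected for this trend. Ribosomal protein mRNAs took 12.2% of the gene counts of Dox replicate 1 against 4.75 to 4.95% in the other 5 libraries. Its share of ambiguous reads, which overlap more than 1 gene and are counted for none, was 12.3% against 9.29 to 10.0%. APOC1, a short apolipoprotein mRNA, had 49.2 to 53.4 CPM in DMSO, with 51.7 and 48.9 in Dox replicates 2 and 3 but 330 in Dox replicate 1. USP34, a long deubiquitinase mRNA, had 116 to 126 in DMSO, 129 and 131, and 9.04 in Dox replicate 1. Their changes without that library were -0.02 ± 0.03 and 0.10 ± 0.02. What sets this library apart was not tested, and the labels give no separate handling for it.

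**Figure D5:**
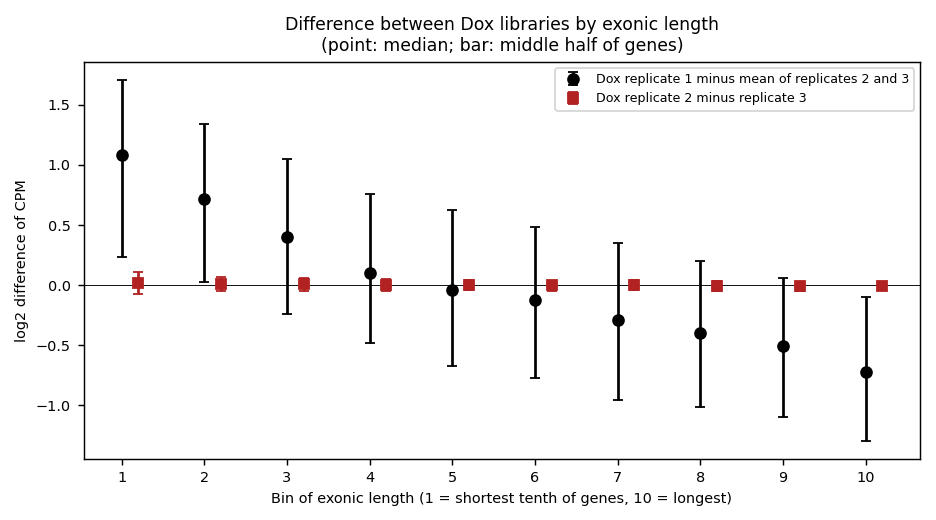
Log2 difference of CPM between Dox libraries in 10 bins of exonic length, with the median as a point and the interquartile range as a bar. The differences of Dox replicate 1 from Dox replicates 2 and 3 (black) fall from a median of 1.08 to -0.72, and those between Dox replicates 2 and 3 (red) stay near zero.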

How the data were processed

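The values deposited by the authors are unnormalized integer read counts, 1 row for each Ensembl gene. STAR 2.6.0a, HTSeq 0.10.0 and the GRCh38 build are named in the submitters' processing notes. No source used here states whether counting was stranded. The 4 rows that name no gene, were left out of totals and tests. They held 9.29 to 12.3% (ambiguous), 2.96 to 3.76% (multimapping), 3.30 to 3.77% (no feature) and 1.80 to 8.93% (unmapped) of all reads in a library. Reads shared by overlapping genes are missing from both, and all intervals cover counting error only, since reads carry no molecular identifiers. All identifiers were found in GENCODE 29, and 11812 are protein coding. Over the 6 libraries the mean count of the median gene was 1110.

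Counts were tested in R 4.3.3 with edgeR 4.0.16 (TMM, robust glmQLFit, glmQLFTest, Benjamini-Hochberg adjustment over all 13511 genes) in 2 fits: the 6 libraries, and 5 without Dox replicate 1. A fit with the libraries of all 4 groups, which share 1 estimate of the spread, served as an alternative. Scaling, low-count filters, DESeq2 1.42.0, voom of limma 3.58.1 with sample quality weights, an offset by exonic length, a replicate block and left-out libraries were the other alternatives. The steps were run on simulated counts drawn with the same means and dispersion trend for every library. No simulated library deviated as Dox replicate 1 does, so that run cannot show how the fit with all 6 libraries handles it. Deviations of same-numbered libraries from their group means had correlations of 0.064, 0.11 and -0.062. The Dox mean includes the deviating Dox replicate 1, so these values cannot show whether replicate numbers pair the libraries.

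The members, the 53 gene lists and the tests were chosen with earlier results of these data known. Named were the 15 largest rises and falls called in both fits (mean log2 CPM at least 3, groups not overlapping), up to 5 members of each list called in both fits and 2 in the other direction (otherwise 4 called without Dox replicate 1), the 10 genes deviating most in Dox replicate 1 each way, 4 noncoding RNAs each way and 16 fixed genes. CEBPG, FUT1, LYZ, MT-ATP6, MT-CO2 and MT-CYB were named after their values were seen. Some genes that meet these rules are not reported here.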

Additional observations from a re-analysis of the deposited data

Results flagged for a closer look

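Reads that fell outside annotated genes lie outside the gene counts compared here. As a share of all reads they were higher in every Dox library than in every DMSO library, from 3.55% in the lowest Dox library against 3.30 to 3.53% in DMSO. Unmapped reads, which enter that total, were 7.17, 8.93 and 1.86% in DMSO and 2.52, 1.85 and 1.80% in Dox. Over mapped reads the groups overlapped, with 3.60, 3.62 and 3.60% in DMSO and 3.86, 3.61 and 3.67% in Dox. The difference between groups was not tested.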

How the results depend on the processing

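Without Dox replicate 1, the counts of genes higher and lower stayed within 1.5 times of 4513 and 4576 under every alternative run, from 3764 to 5858 and from 3387 to 4575. With all 6 libraries the counts of 100 higher and 43 lower moved. They were 63 and 28 with library totals, 189 and 127 with an offset by exonic length, 635 and 504 with DESeq2, 1217 and 957 with the libraries of all 4 groups in the fit, and 4545 and 4546 with limma-voom and sample quality weights, which gave Dox replicate 1 a weight of 0.0062. With a replicate block they were 0 and 0 (658 and 529 at an unadjusted p under 0.05), and the labels do not say whether same-numbered libraries are paired. Leaving out each library gave 0 to 4513 higher and 0 to 4576 lower. The counts of genes whose groups do not overlap were 2808 to 5154 above and 2953 to 5140 below when each library was left out, an alternative chosen after seeing the data. The cause of these differences was not tested.

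Of the 241 named genes called without Dox replicate 1, 63 were also called with it in the fit, 144 kept their direction without a call, and 34 changed sign, none of these past the threshold. The log2 changes with it were CARS2 0.039, TBRG4 0.072, TSFM 0.30, MRPL23 0.78, MRPL17 0.16, MRPL33 0.21, MRPL51 0.27, MRPS14 0.34, HSPE1 0.50, NDUFB3 0.38, NDUFS5 0.13 and NDUFA1 0.10. They were ATP5MC1 0.41, ATP5ME 0.55, UQCRQ 0.47, ATP5MF 0.85, IDH3B 0.21, TTR 0.0094, SERPINA6 0.057, ANGPTL4 0.055, SOD1 0.22, MT1F 0.25, MT1E 0.57 and HILPDA 0.11. For the rest they were TK1 0.014, HSPB1 0.22, RPS26 0.50, RPL23A 0.63, RPL3 0.29, RPL26 0.78, PSMB9 0.29, PSMB6 0.36, TXN 0.50 and CDKN1A 0.083. Under the other alternatives to the fit without it 0 named genes changed sign and 8 lost the call under at least 1: APOA4, RPL26, HIST1H2BC, HIST1H4H, MITF, KLF2, IFITM1 and TOMM5. The share of promoters with TGATGNAA among genes higher in both fits was 18.6 to 25.9%.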
